A study of Mus musculus with 9 samples.

Results

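Transcript levels of 10 genes that take up, store and burn fatty acids were described in 3 immune cell populations of the aged mouse brain. The genes were chosen by name, with earlier results of these data known: Pparg, Fabp5, Acsl1, Dgat1, Dgat2, Plin2, Cpt1a, Acadm, Acadl and Hadha. All 10 were found in the deposited table of 24394 genes, and all 10 were among the 13000 genes that were tested, which averaged 10 counts or more over the libraries. The populations were group 2 innate lymphoid cells (ILC2), T cells and microglia, sorted from brains of C57BL/6 mice aged 20 to 22 months on surface markers that the labels do not name. Every mouse had been given 400 ng of interleukin-33 (IL-33) a day for 7 days. Untreated brains were not analysed here, so that the values describe populations after IL-33 and no effect of the cytokine. The labels describe 9 samples, 3 per population. One column of the table is headed ILC1, which matches no label, and was not used, so that 2 ILC2, 3 T cell and 3 microglia libraries were compared.

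Free fatty acids enter a cell through carriers and are held in solution by fatty acid binding proteins such as Fabp5. Acyl-CoA synthetases such as Acsl1 trap them as thioesters, which are either joined to diacylglycerol by Dgat1 and Dgat2 and stored in lipid droplets coated by Plin2, or handed to carnitine by Cpt1a, the gatekeeper of entry into mitochondria, and shortened there by acyl-CoA dehydrogenases (Acadm, Acadl) and the trifunctional protein (Hadha). Pparg encodes a nuclear receptor that senses fatty acids and switches on genes of uptake and storage. In ILC2 of other tissues of the mouse, Pparg and lipid storage are known from responses to IL-33, and in the aged brain lipid droplets have been described in microglia.

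The 8 libraries held 8376609 to 13585956 counts on genes. Levels are counts-per-million (CPM) values of each scaled library. The ILC2, T cell and microglia marker lists, of 6 genes each, were highest in the population of that name. The ILC2 list summed to 2211 to 3188 CPM in ILC2, 246.0 to 470.6 CPM in T cells and 21.0 to 59.0 CPM in microglia. The T cell list summed to 603.8 to 796.0 CPM in ILC2, 5938 to 7776 CPM in T cells and 11.98 to 32.9 CPM in microglia, and the microglia list to 686.9 to 722.1 CPM in ILC2, 484.6 to 1187 CPM in T cells and 30572 to 46687 CPM in microglia. Most of the T cell sum in ILC2 was Cd3g, at 558.5 and 790.3 CPM in ILC2 1 and 2. Each other T cell marker was at 22.4 CPM or lower there. Markers of cells outside the labels were present too. The 5 neutrophil markers summed to 88.5 to 132.3 CPM in ILC2, 87.7 to 418.2 CPM in T cells and 12095 to 84113 CPM in microglia, and the 6 basophil markers to 395.5 and 1233 CPM in the ILC2 libraries, 8.19 to 46.8 CPM in T cells and 50.9 to 226.3 CPM in microglia. The 5 oligodendrocyte markers summed to 817.0 and 548.4 CPM in the ILC2 libraries, 249.5 to 382.9 CPM in T cells and 105.7 to 143.2 CPM in microglia, and the 5 endothelial markers to 29.6 CPM in both ILC2 libraries, 15.7 to 88.0 CPM in T cells and 244.0 to 712.2 CPM in microglia. Markers of B cells, border macrophages, astrocytes and neurons summed to 180.9 CPM or less in every library. No neutrophil marker was at 0 in a microglia library and no basophil marker in an ILC2 library. Mcpt8, Prss34 and Fcer1a made up most of the basophil sums in ILC2. They were at 84.8, 167.2 and 118.1 CPM in ILC2 1 and 345.5, 608.0 and 140.4 CPM in ILC2 2. Cpa3, Ms4a2 and Cd200r3 were at 22.0, 1.05 and 2.26 CPM in ILC2 1, within the range of the T cell and microglia libraries. In ILC2 2, Ms4a2 and Cd200r3 were within it too, and Cpa3 was above it, at 116.6 CPM. In sorted populations read as bulk RNA, a change in the share of cells of a type and a change in RNA per cell cannot be told apart. A gene was called at an adjusted p under 0.05 in edgeR's quasi-likelihood test and a log2 fold change of at least 1 in either direction. Log2 fold changes are given ± their standard error (SE).

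Pparg, the lipid-sensing nuclear receptor, was highest in ILC2. It was at 215.0 and 244.5 CPM in the ILC2 libraries, at 23.3, 0 and 13.2 CPM in the T cell libraries, and at 16.2, 0 and 0 CPM in the microglia libraries. Both ILC2 libraries lay above all 6 others, and the T cell and microglia libraries overlapped. The mean was 229.7 ± 20.9 CPM in ILC2 (SD, n = 2), 12.2 ± 11.7 CPM in T cells and 5.39 ± 9.33 CPM in microglia (SD, n = 3 each). The log2 fold change was 4.24 ± 2.07 for ILC2 over T cells (95% interval -0.40 to 8.88, adjusted p = 0.583 in edgeR) and 5.41 ± 2.18 for ILC2 over microglia (0.53 to 10.29, adjusted p = 0.163 in edgeR), so that neither difference was called. The newer quasi-likelihood method of edgeR called both, with an adjusted p of 0.00317 over T cells and 0.000252 over microglia, and limma-voom called the difference from microglia, with an adjusted p of 0.0119. The adjusted p of edgeR for ILC2 over microglia was 0.0352 without microglia 1, which had the only counts in microglia. Over all settings and tools the adjusted p ran from 0.00317 to 0.843 against T cells and from 0.000252 to 0.353 against microglia.

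The 6 ILC2 markers summed to 328.3, 246.0 and 470.6 CPM in T cells 1, 2 and 3, where Pparg was at 23.3, 0 and 13.2 CPM, and to 59.0, 43.7 and 21.0 CPM in microglia 1, 2 and 3, where Pparg was at 16.2, 0 and 0 CPM. T cells 2 had the lowest sum of the T cell libraries, but not the lowest level of every marker. Il1rl1, the gene of the IL-33 receptor, was at 38.6, 6.82 and 32.1 CPM in T cells 1, 2 and 3, and Gata3, a transcription factor of type 2 lymphocytes, at 120.8, 134.4 and 225.9 CPM. In microglia Il1rl1 was at 18.8, 33.6 and 10.3 CPM, highest in microglia 2, which had no Pparg count. The markers Rora, at 39.4, 10.1 and 10.1 CPM, and Gata3, at 0.81, 0.10 and 0 CPM, were highest in microglia 1. Of the rest, Il5 and Il13 had counts in microglia 3 alone, at 0.10 and 0.52 CPM, and Nmur1 had none. The part of ILC2 RNA in the Pparg counts of T cells and microglia was not tested. Within ILC2, Pparg was higher in ILC2 2, as the summed basophil markers were, and the part of basophils was not tested either. With 2 ILC2 libraries, 1 had to be the higher, so that a shared order is a description alone.

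In build mm10, the storage and activation genes lie on chromosome 15 from 76502015 to 76511953 (Dgat1), 7 from 99153658 to 99182719 (Dgat2) and 4 from 86648386 to 86670060 (Plin2), all on the minus strand, and on chromosome 8 from 46471037 to 46536051 on the plus strand (Acsl1). Fabp5 lies on chromosome 3 from 10012548 to 10016607 and Cpt1a on 19 from 3322334 to 3385733, both on the plus strand. Acadm lies on chromosome 3 from 153922357 to 153944632, Acadl on 1 from 66830839 to 66863277 and Hadha on 5 from 30118304 to 30155162, all on the minus strand, and all 10 genes are protein coding. Pparg lies on chromosome 6 from 115360951 to 115490399 on the plus strand in build mm10 (GRCm38, ENSMUSG00000000440.12, protein coding). RefSeq promoter windows, from 250 bases before to 50 after a start site, were held for 7 of the 10 genes, with 3 start sites for Pparg and 2 for Acsl1. They were searched on both strands for the PPAR response element, taken as 2 copies of AGGTCA on either side of any 1 base, and for the single unit AGGTCA, which the element contains. None of the 10 windows held the whole element, against 0.0396% of 32851 promoter windows of all genes. The unit was in 5 windows of 4 genes (Pparg, Plin2, Acadm and Cpt1a), against 16.3% of all windows. GATA sites, taken as AGATAA, were in none of the 10, against 11.2% of all. A match is a run of letters and shows no binding, and the counts do not tell which start site was used. The windows of the first Pparg start sites and of Plin2, the droplet coat gene, are shown because Pparg and Plin2 had the highest levels per length of transcript in ILC2 and Plin2 is a textbook target of this receptor. Capitals mark the unit, which begins at -28 and -9 from the Pparg start sites and, on the opposite strand, at -218 from that of Plin2. The windows are from GRCm38.p6, at chr6:115360894-115361193 (plus strand), chr6:115362099-115362398 (plus strand) and chr4:86670010-86670309 (minus strand).
Pparg start site 1: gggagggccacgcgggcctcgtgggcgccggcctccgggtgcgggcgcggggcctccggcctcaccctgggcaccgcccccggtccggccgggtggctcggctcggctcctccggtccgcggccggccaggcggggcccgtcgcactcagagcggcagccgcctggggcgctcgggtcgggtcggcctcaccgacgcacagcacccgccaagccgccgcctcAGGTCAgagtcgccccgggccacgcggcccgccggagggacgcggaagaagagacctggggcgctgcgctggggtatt
Pparg start site 2: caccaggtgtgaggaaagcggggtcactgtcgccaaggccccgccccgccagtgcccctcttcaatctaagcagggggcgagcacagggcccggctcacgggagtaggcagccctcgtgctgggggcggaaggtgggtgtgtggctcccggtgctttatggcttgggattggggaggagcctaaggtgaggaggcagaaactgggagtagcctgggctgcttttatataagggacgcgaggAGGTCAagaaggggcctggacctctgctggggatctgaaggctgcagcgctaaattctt
Plin2: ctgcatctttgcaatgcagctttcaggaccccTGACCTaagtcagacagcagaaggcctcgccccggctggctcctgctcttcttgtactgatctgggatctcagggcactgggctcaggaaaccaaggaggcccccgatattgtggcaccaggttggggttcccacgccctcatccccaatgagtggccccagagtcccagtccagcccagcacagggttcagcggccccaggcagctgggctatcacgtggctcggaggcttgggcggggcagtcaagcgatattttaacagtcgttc

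**Figure D1:**
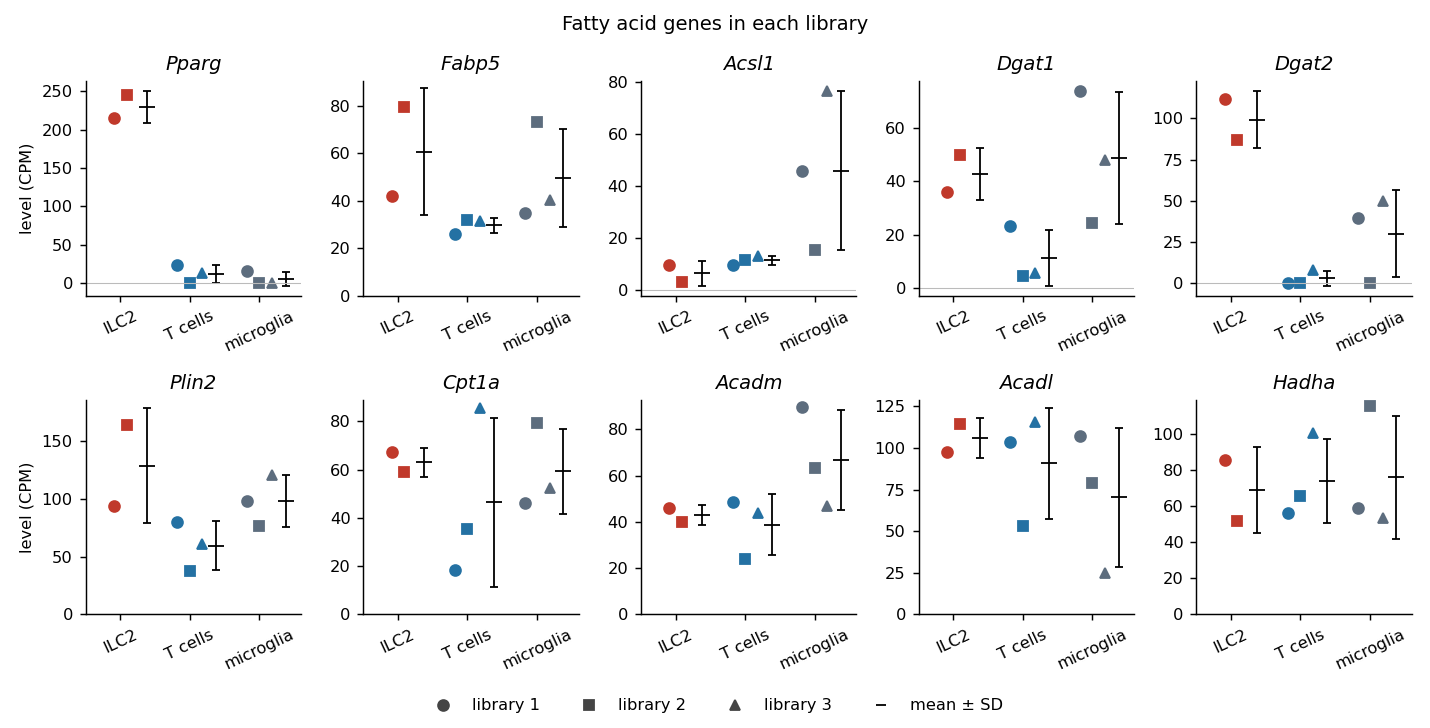
Level of each of the 10 genes (CPM of the scaled library, linear axis) in 2 ILC2, 3 T cell and 3 microglia libraries, with the mean and SD beside each group. The 2 ILC2 libraries stand above all others for Pparg (215.0 and 244.5 CPM) and Dgat2 (111.7 and 87.0 CPM), and the groups overlap for Cpt1a, Acadl and Hadha. Libraries are numbered by column, and whether equal numbers share a mouse or pool is not known.

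The genes whose profile over the 8 libraries was nearest to that of Pparg were Il17rb, Mns1, Ero1l, Ltb4r1 and Il1rl1. Likeness was the root mean square difference of mean-centred log2 levels (1 CPM added), which was 1.16 for Il17rb, 1.37 for Mns1, 1.501 for Ero1l, 1.52 for Ltb4r1 and 1.54 for Il1rl1, and it is a description that carries no test. Il17rb encodes the receptor subunit for interleukin-25, and was at 199.6 and 295.0 CPM in ILC2, 1.30, 0 and 15.9 CPM in T cells and 7.47, 0 and 0 CPM in microglia. Like Pparg it had no count in T cells 2, microglia 2 and microglia 3. The related receptors were low: Ppard reached at most 7.34 CPM in any library and Ppara had counts in 1 library alone, microglia 2, at 3.26 CPM. Rxra, a partner with which PPAR proteins bind DNA, was at 10.01 and 8.16 CPM in ILC2, 6.72 to 19.3 CPM in T cells and 21.3 to 22.4 CPM in microglia. Its family member Rxrb was at 18.3 and 14.7 CPM in ILC2, 16.5 to 27.5 CPM in T cells and 18.3 to 54.8 CPM in microglia.

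Fabp5, a carrier of fatty acids inside the cell, was at 41.9 and 79.5 CPM in ILC2, at 26.1, 31.7 and 31.3 CPM in T cells and at 35.0, 73.1 and 40.3 CPM in microglia. Both ILC2 and all microglia libraries lay above all T cell libraries, while ILC2 and microglia overlapped. An annotated processed pseudogene, Fabp5l2, resembles this gene, so that its counts are uncertain. The log2 fold change of ILC2 over T cells was 1.03 ± 0.51 (adjusted p = 0.586 in edgeR), that of ILC2 over microglia 0.30 ± 0.52 (adjusted p = 0.823) and that of T cells over microglia -0.73 ± 0.47 (adjusted p = 0.343). Fabp5 was higher in ILC2 2 than in ILC2 1, and so were the summed basophil markers, at 1233 and 395.5 CPM. That order of 2 libraries is a description alone, and the part of basophils in it was not tested. Its family members Fabp3 and Fabp4 stayed at or under 9.60 and 4.48 CPM in every library, and Fabp7 had no count in any. Cd36, a surface receptor for long-chain fatty acids, overlapped between all populations, at 25.7 and 3.88 CPM in ILC2, 0.11, 10.3 and 0 CPM in T cells and 55.0, 7.60 and 7.60 CPM in microglia.

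Acsl1, which activates long-chain fatty acids, was low in both lymphocyte populations. It was at 9.84 and 3.01 CPM in ILC2, 9.54, 11.6 and 13.1 CPM in T cells and 45.7, 15.6 and 76.7 CPM in microglia. All microglia libraries lay above all ILC2 and T cell libraries, microglia 2 by the least. The log2 fold change was -2.84 ± 0.94 for ILC2 over microglia (95% interval -4.93 to -0.74, adjusted p = 0.0931 in edgeR) and -2.01 ± 0.77 for T cells over microglia (95% interval -3.73 to -0.28, adjusted p = 0.121 in edgeR), neither of them called. DESeq2 called both, with an adjusted p of 0.00822 and 0.0358. Of its family, Acsl5 overlapped between all populations and was at 158.3 and 107.0 CPM in ILC2, 100.5 to 167.7 CPM in T cells and 94.8 to 133.0 CPM in microglia, and Acsl3 was at 10.5 CPM or lower in every library. Acsl4, which prefers arachidonic acid, was at 21.5 and 15.9 CPM in ILC2, 7.37 to 27.1 CPM in T cells and 54.9 to 82.1 CPM in microglia, with all microglia libraries above the others, and was not called (adjusted p = 0.117 in ILC2 over microglia and 0.0627 in T cells over microglia, edgeR).

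The microglia levels of Acsl1 followed the order of the neutrophil markers over the 3 libraries. These summed to 70969, 12095 and 84113 CPM in microglia 1, 2 and 3, and Acsl1 had the same order, with 45.7, 15.6 and 76.7 CPM. With microglia 2 as the single microglia library, chosen as an alternative after the data were seen, the log2 fold change of Acsl1 was -1.28 for ILC2 over microglia and -0.45 for T cells over microglia. Dgat2 and Plin2 had that order too. Dgat1 was also lowest in microglia 2 but was higher in microglia 1 than in microglia 3, at 73.8 and 48.1 CPM. Fabp5, Cpt1a and Hadha were highest in microglia 2. The share of all genes with such an order was not computed. The part of neutrophil RNA in these levels was not tested.

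**Figure D2:**
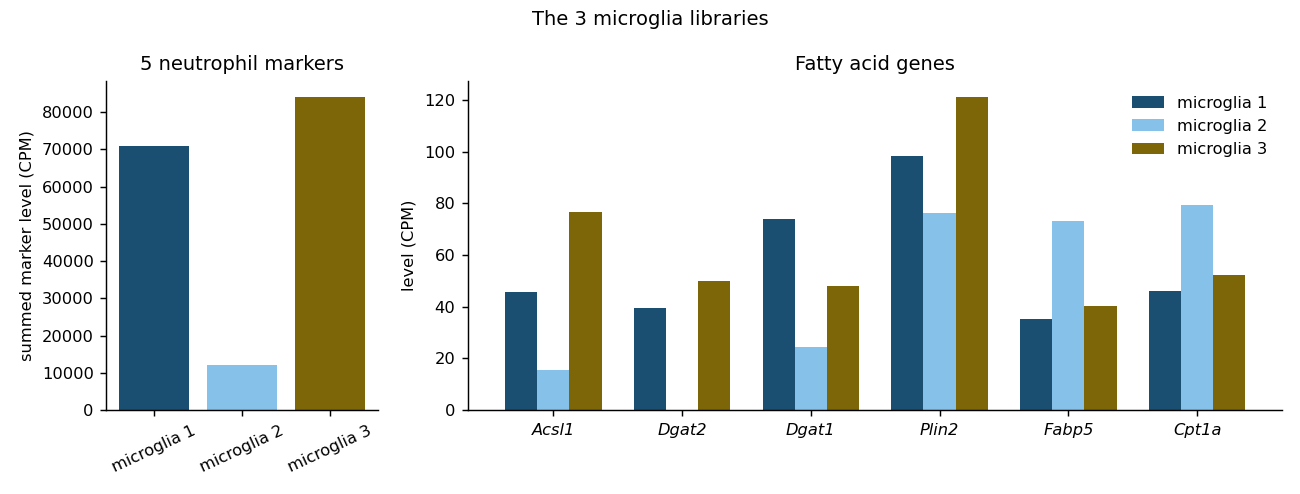
Left, summed level of 5 neutrophil markers (S100a8, S100a9, Retnlg, Ngp and Camp) in the 3 microglia libraries; right, levels of 6 fatty acid genes in the same libraries, both in CPM on linear axes from 0. Acsl1, Dgat2, Dgat1 and Plin2 are lowest in microglia 2, which has the lowest neutrophil sum (12095 CPM), and Fabp5 and Cpt1a are highest there.

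Of the storage genes, Dgat2, which adds the last acyl chain of triglyceride from newly made fatty acids, had the largest fold change of ILC2 over T cells. It was at 111.7 and 87.0 CPM in ILC2, 0, 0 and 7.96 CPM in T cells and 39.6, 0 and 49.9 CPM in microglia. Both ILC2 libraries lay above all 6 others. The mean was 99.3 ± 17.5 CPM in ILC2 (SD, n = 2), 2.65 ± 4.60 CPM in T cells and 29.8 ± 26.3 CPM in microglia (SD, n = 3 each). The log2 fold change of ILC2 over T cells was 5.23 ± 2.25 (95% interval 0.20 to 10.26, adjusted p = 0.504 in edgeR, and 0.00579 with the newer quasi-likelihood method). That of ILC2 over microglia was 1.74 ± 2.01 (adjusted p = 0.701) and that of T cells over microglia -3.49 ± 2.02 (adjusted p = 0.292, and 0.0315 with the newer quasi-likelihood method, which called it). With microglia 2 alone, which had no Dgat2 count, the sign of the last difference turned, and the size of that value is set by the small prior count of edgeR.

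Dgat1, which catalyses the same step and re-esterifies fatty acids from outside the cell, was low in T cells and overlapped between ILC2 and microglia. Its levels were 36.0 and 49.7 CPM in ILC2, 23.3, 4.68 and 5.77 CPM in T cells and 73.8, 24.4 and 48.1 CPM in microglia. The log2 fold change was 1.93 ± 0.79 for ILC2 over T cells (95% interval 0.16 to 3.70, adjusted p = 0.486 in edgeR) and -2.12 ± 0.74 for T cells over microglia (95% interval -3.78 to -0.45, adjusted p = 0.0937 in edgeR). The difference of T cells from microglia was called without T cells 1, where it was -3.22 with an adjusted p of 0.0248, and by DESeq2 (adjusted p = 0.0239). Between ILC2 and microglia it was -0.19 ± 0.80 (adjusted p = 0.944).

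Plin2, which coats lipid droplets, was also lowest in T cells on average. It was at 93.6 and 164.6 CPM in ILC2, 80.0, 37.7 and 60.9 CPM in T cells and 98.2, 76.3 and 121.2 CPM in microglia. Both ILC2 libraries lay above all T cell libraries, and the other pairs of populations overlapped. On the log2 scale the fold change was 1.12 ± 0.44 for ILC2 over T cells (95% interval 0.14 to 2.09, adjusted p = 0.454 in edgeR), 0.39 ± 0.44 for ILC2 over microglia (adjusted p = 0.692) and -0.73 ± 0.40 for T cells over microglia (adjusted p = 0.265). As with Fabp5, ILC2 2 was the higher of the ILC2 libraries and the one with the higher sum of basophil markers. That order of 2 libraries is a description alone, and the part of basophils was not tested. Plin3, another droplet coat, was at 70.5 and 58.2 CPM in ILC2, 30.6 to 80.7 CPM in T cells and 21.4 to 61.9 CPM in microglia, and Pnpla2, the lipase that opens triglyceride stores, at 132.5 and 89.8 CPM in ILC2, 82.7 to 176.2 CPM in T cells and 91.0 to 135.7 CPM in microglia. Both overlapped between all populations.

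None of the 4 oxidation genes was called in any comparison or setting. Cpt1a, the carnitine transferase of the outer mitochondrial membrane, was at 67.3 and 58.9 CPM in ILC2, 18.2, 35.5 and 85.4 CPM in T cells and 46.3, 79.4 and 52.3 CPM in microglia. Its T cell libraries ran below and above all others. Acadl, the long-chain dehydrogenase, was at 97.6 and 114.6 CPM in ILC2, 103.9, 52.8 and 115.6 CPM in T cells and 107.4, 78.8 and 24.996 CPM in microglia. Hadha, the large subunit of the trifunctional protein, was at 85.5 and 52.0 CPM in ILC2, 56.4, 65.3 and 100.2 CPM in T cells and 58.7, 115.3 and 53.4 CPM in microglia. All population ranges of these 3 genes overlapped. Acadm, the medium-chain dehydrogenase, was at 45.9 and 40.0 CPM in ILC2, 48.6, 23.8 and 43.8 CPM in T cells and 89.6, 63.3 and 46.8 CPM in microglia. Its ILC2 libraries lay just below all microglia libraries, with a log2 fold change of -0.63 ± 0.50 (95% interval -1.75 to 0.49, adjusted p = 0.522 in edgeR).

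The intervals of the oxidation genes bound how large a difference these libraries allow. For ILC2 over T cells the 95% interval of the log2 fold change was -0.93 to 1.82 for Cpt1a, -1.08 to 1.53 for Acadl, -0.95 to 1.25 for Acadm and -1.19 to 0.98 for Hadha. For ILC2 over microglia it was -1.29 to 1.47 for Cpt1a, -0.70 to 1.89 for Acadl and -1.23 to 0.95 for Hadha. For T cells over microglia it was -1.60 to 0.89 for Cpt1a, -0.81 to 1.54 for Acadl, -1.77 to 0.21 for Acadm and -1.005 to 0.93 for Hadha. The lowest adjusted p of these genes in any setting was 0.185, for Acadm in T cells over microglia. Of the neighbouring steps, Hadhb, the other subunit of the trifunctional protein, was at 70.7 and 105.0 CPM in ILC2, 83.5 to 97.7 CPM in T cells and 39.3 to 89.3 CPM in microglia. Acadvl, the very-long-chain dehydrogenase, was at 61.2 and 131.8 CPM in ILC2, 65.6 to 108.1 CPM in T cells and 45.2 to 99.1 CPM in microglia. Acads, the short-chain enzyme, was at 26.6 and 24.6 CPM in ILC2, 13.7 to 18.9 CPM in T cells and 18.5 to 62.3 CPM in microglia, and Cpt2, which frees the acyl group inside the mitochondrion, at 53.3 and 30.5 CPM in ILC2, 10.2 to 23.3 CPM in T cells and 26.5 to 43.1 CPM in microglia. The ILC2 libraries lay above all T cell libraries for Acads and Cpt2, and none of these 4 genes was called.

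**Figure D3:**
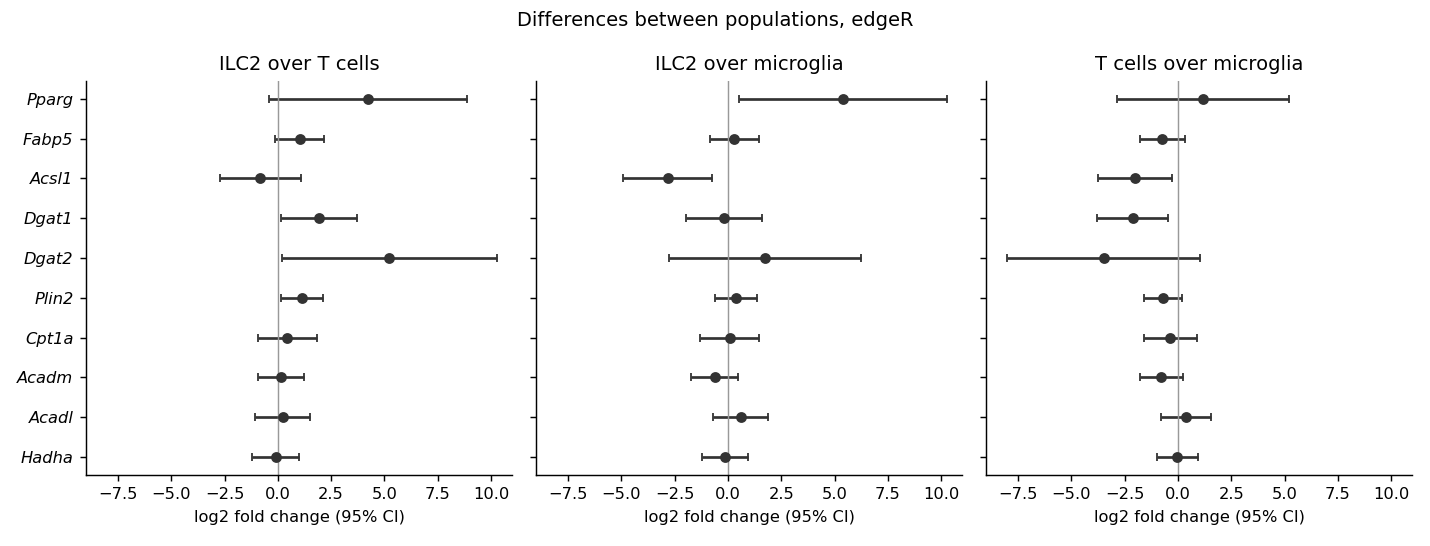
Log2 fold changes of the 10 genes (edgeR, points) with 95% intervals (bars) for ILC2 over T cells, ILC2 over microglia and T cells over microglia. Pparg and Dgat2 have the largest positive values over T cells (4.24 and 5.23) and the widest intervals, and the intervals of the 4 oxidation genes include 0 in all 3 comparisons.

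Set side by side per length of transcript, the order of the mean levels differed between populations. Levels per kilobase (CPM per kb) were taken over the exons of each gene in GENCODE M21, which may not be the annotation of the authors. In ILC2 the order was led by Pparg (96.6 ± 8.78 CPM per kb), followed by Plin2 (68.4 ± 26.6), Fabp5 (61.5 ± 27.0), Acadl (55.4 ± 6.30) and Dgat2 (43.9 ± 7.72), and ended with Acsl1 (1.54 ± 1.16). Pparg stood above the range of every other gene there, while Plin2, Fabp5 and Acadl overlapped. In T cells Acadl led (47.4 ± 17.4 CPM per kb), with Plin2 (31.5 ± 11.2) and Fabp5 (30.1 ± 3.18) after it and Dgat2 last (1.17 ± 2.03). The T cell ranges of Acadl, Plin2 and Fabp5 overlapped. In microglia Plin2 (52.2 ± 11.9 CPM per kb) and Fabp5 (50.1 ± 20.9) led and overlapped, and Pparg was last (2.27 ± 3.92). Acadl and Acadm overlapped both of the leading genes in microglia. Errors are SDs over 2 ILC2, 3 T cell and 3 microglia libraries. The remaining genes fell between these with neighbouring ranges that mostly overlapped. Acsl1 was ninth in T cells and microglia, at 2.74 ± 0.43 and 11.02 ± 7.32 CPM per kb.

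**Figure D4:**
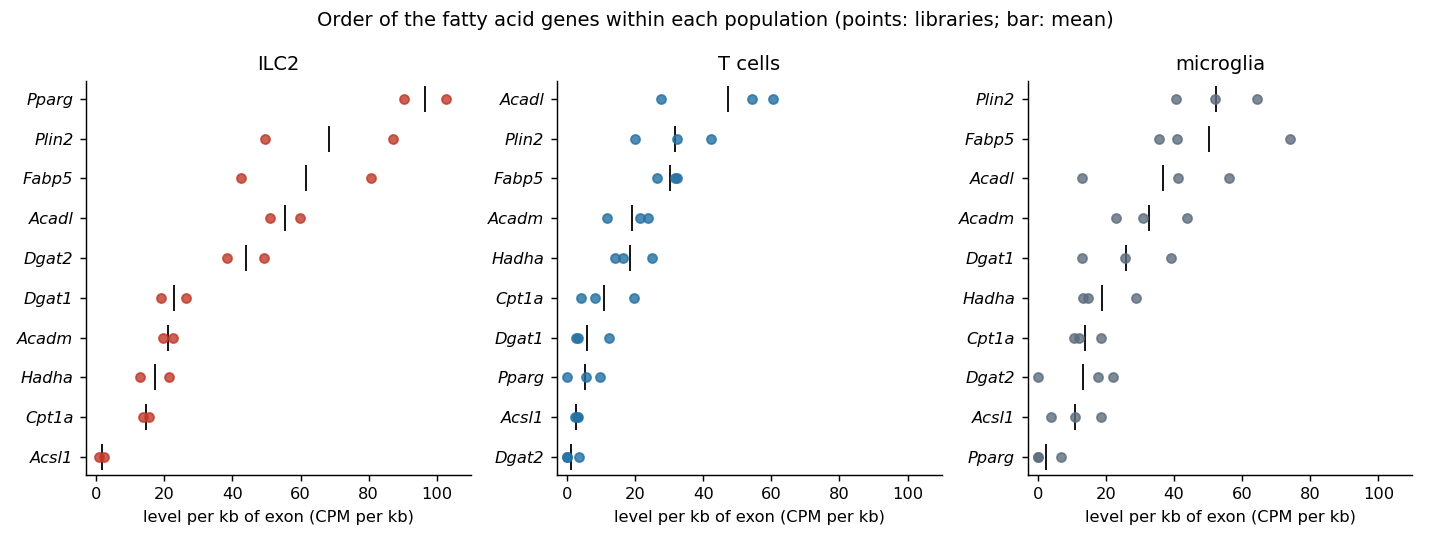
Level of each gene per kilobase of exon (CPM per kb, linear axis) in ILC2, T cells and microglia, sorted by the mean within each population; points are libraries and the bar is the mean. Pparg is first in ILC2 (mean 96.6 CPM per kb) and last in microglia (2.27 CPM per kb).

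Counted as a group, none of the 10 genes was called by edgeR in any comparison. For ILC2 over T cells, 0 of 10 were called where 0.923% of all 13000 tested genes were (0.431% higher and 0.492% lower in ILC2), 3 were at an unadjusted p under 0.05 (Dgat1, Dgat2 and Plin2) against 9.39% of all genes, and DESeq2 and limma-voom called 0 and the newer quasi-likelihood method 2. The groups did not overlap in 5 of the 10 (Pparg, Fabp5, Dgat1, Dgat2 and Plin2), all higher in ILC2, against 25.2% of all genes, and the median log2 fold change was 0.74, against 0.00 over all genes. For ILC2 over microglia, 0 of 10 were called where 9.75% of all genes were (4.99% higher and 4.76% lower in ILC2), 2 were at an unadjusted p under 0.05 (Pparg and Acsl1) against 24% of all genes, and DESeq2 and limma-voom called 1 each and the newer method 2. The groups did not overlap in 4 of the 10, against 43% of all genes, and the median was 0.19, against -0.01 over all genes. For T cells over microglia, 0 of 10 were called where 13% of all genes were (5.91% higher and 7.13% lower in T cells), 2 were at an unadjusted p under 0.05 (Dgat1 and Acsl1) against 28.2% of all genes, and DESeq2 called 2, limma-voom 0 and the newer method 3. The groups did not overlap in 3 of the 10, all lower in T cells, against 37.2% of all genes, and the median was -0.73, against 0.00 over all genes. The 3 comparisons share libraries, so that these counts are not independent of each other. The genes were also chosen with earlier results of these data known. With total counts in place of TMM scaling, the median of all genes moved by 0.32 for ILC2 over microglia and by 0.37 for T cells over microglia, and the sign turned for Hadha in both, for Dgat1 in ILC2 and for Cpt1a in T cells. The calls over all genes were then 1017 higher and 519 lower for ILC2 over microglia, in place of 649 and 619, and 1312 higher and 722 lower for T cells over microglia, in place of 768 and 927.

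The rest of fatty acid metabolism was described with 115 further genes in 9 lists, of which 96 were tested. For ILC2 over T cells, 2 of the 96 were called, both higher, where 0.431% of all genes were higher and 0.492% lower. Hilpda, a small droplet protein that inhibits the lipase encoded by Pnpla2, was at 614.7 and 689.0 CPM in ILC2 and at 112.7, 96.7 and 61.4 CPM in T cells. For Hilpda the log2 fold change was 2.85 ± 0.49 (adjusted p = 0.0283 in edgeR). Elovl5, which elongates polyunsaturated fatty acids, was at 927.7 and 542.1 CPM in ILC2 and at 106.4, 215.5 and 176.0 CPM in T cells. For Elovl5 the log2 fold change was 2.15 ± 0.37 (adjusted p = 0.0285 in edgeR). Both rose in ILC2 with no overlap between the groups. The summed oligodendrocyte markers were also higher in ILC2 than in T cells, and in ILC2 1 than in ILC2 2, as Elovl5 was. Of these markers, Mbp alone overlapped between the groups, at 426.6 and 285.6 CPM in ILC2 and 241.8, 326.6 and 234.5 CPM in T cells. The summed ILC2 and B cell markers were higher in ILC2 1 as well. Hilpda was higher in ILC2 2, as the summed basophil markers were. These were at 395.5 CPM in ILC2 1, 1233 CPM in ILC2 2 and 8.19 to 46.8 CPM in T cells. With 2 ILC2 libraries, 1 had to be the higher for each gene, so that these orders are descriptions alone. The part of any cell type in the differences of Hilpda and Elovl5 was not tested. Hilpda lost its call without any 1 of the ILC2 or T cell libraries (adjusted p of 0.0757 to 0.122) or without microglia 3 (0.0525), and Elovl5 without ILC2 1 (0.160), T cells 1 (0.0817) or T cells 3 (0.0853), and with microglia 2 as the single microglia library (0.0636). The median log2 fold change of the 96 genes was 0.13.

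For ILC2 over microglia, 10 of the 96 were called higher and 7 lower, where 4.99% of all genes were higher and 4.76% lower. The median log2 fold change was -0.15, against -0.01 over all genes. Hilpda also rose here, with 26.6 to 94.8 CPM in microglia and a log2 fold change of 3.40 ± 0.50 (adjusted p = 0.00231 in edgeR), called in every setting. The synthetase Acsbg1 was at 206.1 and 137.1 CPM in ILC2, 63.4 to 73.5 CPM in T cells and 0.40, 0 and 0 CPM in microglia, and rose in both lymphocyte populations (adjusted p = 0.000276 in ILC2 and 0.000265 in T cells, edgeR). Acss2, which activates acetate, was at 86.8 and 53.9 CPM in ILC2, 37.3 to 139.0 CPM in T cells and 0.52 to 3.95 CPM in microglia (adjusted p = 0.00933 in ILC2 and 0.00577 in T cells, edgeR). Slc27a6, a fatty acid transporter, was called in both (adjusted p = 0.0418 in ILC2 and 0.0429 in T cells, edgeR). It had no count in microglia and was at 19.4 and 1.43 CPM in ILC2, at least 34.2-fold higher when each microglia library is given the 3 counts that 0 allows, at least 4.69-fold without ILC2 1 and at least 63.7-fold without ILC2 2. It was at least 16.3-fold higher in T cells, with 3.25 to 6.27 CPM. Its call was lost without any 1 of the 8 libraries in ILC2 over microglia (adjusted p of 0.0578 to 0.197). In ILC2 and in T cells it was also lost with the newer quasi-likelihood method (0.0599 and 0.137) and with only the 2 groups in the fit (0.0841 and 0.0780).

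Lpl, G0s2, Abcd2 and Mlxipl fell in both lymphocyte populations relative to microglia. Lpl, the lipase that frees fatty acids from lipoproteins, was at 0.73 and 5.07 CPM in ILC2, 0.54, 17.1 and 28.9 CPM in T cells and 257.8, 641.3 and 230.0 CPM in microglia. G0s2, which inhibits the lipase encoded by Pnpla2, was at 4.76 and 7.61 CPM in ILC2, 15.7 to 31.7 CPM in T cells and 203.5 to 378.5 CPM in microglia, with a log2 fold change of -5.49 ± 0.57 in ILC2 (adjusted p = 0.000411, edgeR) and -3.64 ± 0.43 in T cells (adjusted p = 0.000573, edgeR). G0s2 was called in every setting. The settings include the fit with microglia 2 alone, where neutrophil markers still summed to 12095 CPM. The part of neutrophil RNA in G0s2 was not tested. Abcd2, a peroxisomal carrier of very-long-chain fatty acids, was at 5.73 and 3.72 CPM in ILC2, 0, 1.51 and 3.68 CPM in T cells and 153.1 to 202.1 CPM in microglia (adjusted p = 0.0221 in ILC2 and 0.00293 in T cells, edgeR). Mlxipl, a glucose-sensing factor that switches on lipid synthesis, had no count in ILC2 and 36.8, 64.3 and 102.0 CPM in microglia, at least 282-fold lower in ILC2, and was at 0, 1.72 and 0 CPM in T cells. Lpl had an adjusted p of 0.0212 in ILC2 and 0.0285 in T cells and Mlxipl of 0.0206 and 0.0252 (edgeR). In ILC2 over microglia, leaving out 1 library ended the call of Lpl (microglia 2 with 0.0502, ILC2 1 with 0.113, ILC2 2 with 0.0737), of Abcd2 (microglia 1 with 0.0562, microglia 2 with 0.0502, ILC2 1 with 0.101, ILC2 2 with 0.160) and of Mlxipl (microglia 3 with 0.0656, ILC2 1 with 0.0895, ILC2 2 with 0.113).

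For T cells over microglia, 6 of the 96 genes were called higher and 8 lower, where 5.91% of all genes were higher and 7.13% lower. The median log2 fold change was -0.09, against 0.00 over all genes. Lipe, the hormone-sensitive lipase, was at 8.35, 5.16 and 4.88 CPM in T cells and 31.8, 43.5 and 24.996 CPM in microglia, with a log2 fold change of -2.45 ± 0.69 (adjusted p = 0.0452 in edgeR). Its call was lost without any 1 of the T cell or microglia libraries or without ILC2 1 (0.0562 to 0.130), with total counts (0.0762) and with limma-voom (0.0862). Lpl lost its call here without microglia 2 (0.0811) or T cells 2 (0.0782), Mlxipl without microglia 2 (0.0610) or microglia 3 (0.0888), and Slc27a6 without any library but ILC2 2 (0.0724 to 0.0897). By list, the calls for T cells over microglia were 1 lower of 11 tested regulators, 1 higher and 2 lower of 10 genes of uptake and binding, 2 higher of 9 of activation, 1 higher of 17 of storage, 2 lower of 5 of lipolysis, 1 higher of 6 of the carnitine shuttle, 1 higher of 18 of mitochondrial oxidation, 3 lower of 9 of peroxisomal oxidation and 0 of 11 of synthesis (edgeR; 4 of these 11 were at an unadjusted p under 0.05). For ILC2 over microglia they were 1 lower of the regulators, 1 higher and 2 lower of uptake and binding, 2 higher of activation, 2 higher and 1 lower of storage, 1 lower of lipolysis, 1 higher of the carnitine shuttle, 3 higher of mitochondrial oxidation, 2 lower of peroxisomal oxidation and 1 higher of synthesis. These counts are small, and either way 13% of all genes were called for T cells over microglia and 9.75% for ILC2 over microglia. Slc25a20, which carries acylcarnitines into mitochondria for the step after Cpt1a, was at 63.4 and 61.4 CPM in ILC2, 40.4 to 50.9 CPM in T cells and 4.27 to 10.3 CPM in microglia, and rose in both lymphocyte populations (adjusted p = 0.00942 in ILC2 and 0.0134 in T cells, edgeR). As given beside Acsl1, neutrophil markers summed to 12095 to 84113 CPM in the microglia libraries. With microglia 2 as the single microglia library, 5 of the 96 genes were called for ILC2 over microglia and 5 for T cells over microglia, among them Acsbg1 and G0s2 in both. Slc25a20 was not followed over the settings. Among the other called genes named here, the calls of Acss2, Lpl, Mlxipl and Slc27a6 were lost in both comparisons. Those of Abcd2 in ILC2 and Lipe in T cells were lost too, all in edgeR.

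**Figure D5:**
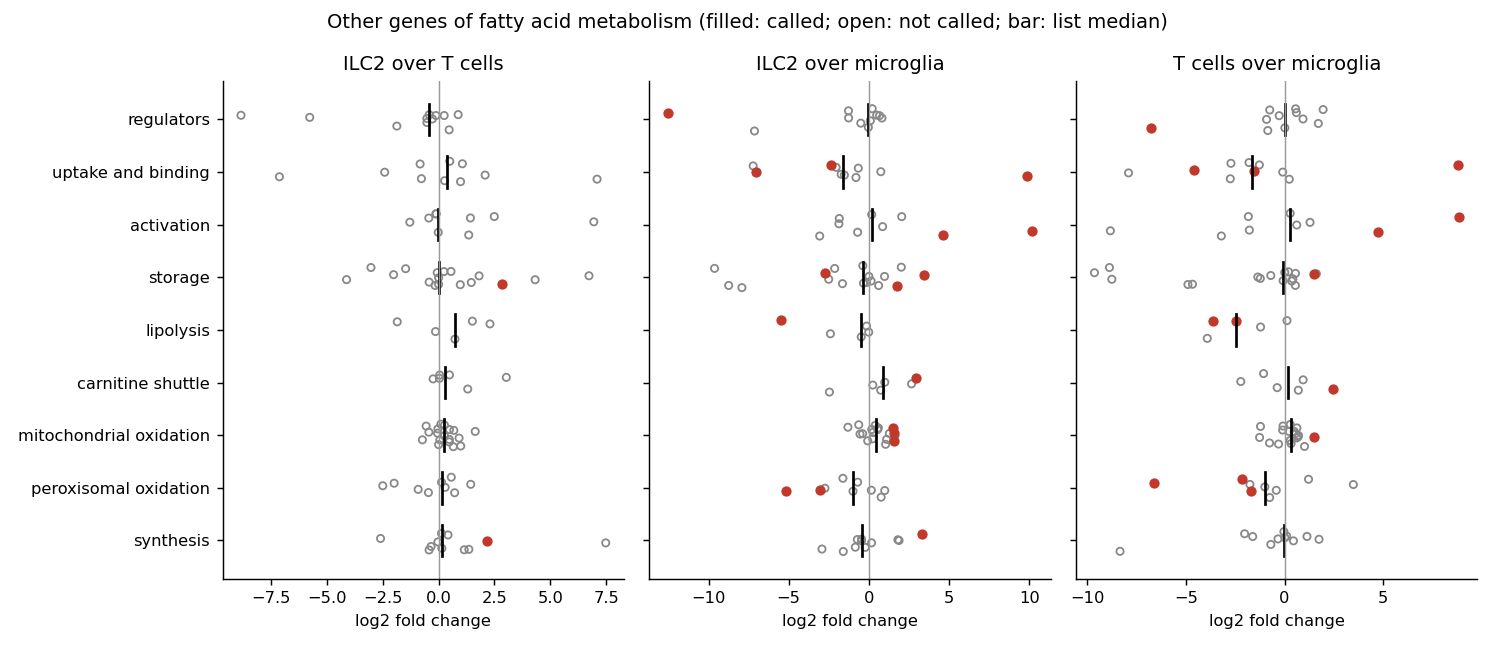
Log2 fold change (edgeR) of 96 further genes of fatty acid metabolism in 9 lists for the 3 comparisons; filled points were called, open points were not, and the bar is the median of the list. Calls are 2 for ILC2 over T cells, 17 for ILC2 over microglia and 14 for T cells over microglia, on both sides of 0 against microglia.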

How the data were processed

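Per the labels, total RNA was taken from the sorted cells in Trizol-LS and sequenced from 1 end to 75 bp. Per the submitters' processing notes, STAR 2.5.3a, DESeq2 1.1, Cufflinks 2.0, FastQC 1.0.0 and bcl2fastq 2.20.0.422 were used with build mm10; their roles, the counter, the annotation and the strand setting are not given in the sources used here. The deposited table holds whole numbers with different totals per library, which were treated as raw counts per gene although its title says normalized; all levels and p-values rest on this. Reads outside genes (53.8% to 61.0% of all counts), ambiguous reads (0.338% to 1.23%) and 27 rows whose symbols had become dates were left out. The table has 9 library columns, of which 1, headed ILC1, was not used. The sample titles number the samples 1 to 3 alike in each population, and whether equal numbers share a mouse or pool is not stated; the column headings carry no numbers, so libraries could not be paired and were treated as independent. Nothing says that samples of a population came from separate mice, so p-values measure only library-to-library spread, possibly technical.

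Libraries were scaled with TMM (factors 0.822 to 1.18). The test was the quasi-likelihood F test (legacy estimator) of edgeR 4.0.16 in R 4.3.3, with Benjamini-Hochberg adjustment over 13000 genes, on 1 fit of 8 libraries; the SE is the absolute log2 fold change over the root of F. Common dispersion corresponded to a biological coefficient of variation of 0.967. A floor of 3 counts was 0.207 to 0.325 CPM; floors cover counting error only. Alternatives used limma 3.58.1 and DESeq2 1.42.0. The genes and lists were chosen with earlier results of these data known. Of the further genes, all that were called were named in a comparison up to 8, beyond that the 8 with the largest absolute log2 fold change, plus the partners of the 10 genes; Gpat3 and Gpat4 were matched by older symbols. Exon lengths and coordinates are from GENCODE M21 (GRCm38). Reads shared with pseudogenes, as annotated for Fabp5, or with antisense genes could not be told apart.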

Additional observations from a re-analysis of the deposited data

How the results depend on the processing

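With 2 or 3 libraries a population, the count of calls depended on the estimator more than on the scaling. Of the 10 genes, 0 were called in each comparison by edgeR's legacy estimator, against 2, 2 and 3 with the newer quasi-likelihood method (ILC2 over T cells, ILC2 over microglia, T cells over microglia), 1 and 2 with DESeq2 in both comparisons with microglia, and 1 with limma-voom in ILC2 over microglia. The calls over all genes were 120, 1268 and 1695, against 321, 2251 and 2723 with the newer method and 529, 2329 and 2713 with DESeq2. Limma-voom called 292 for ILC2 over T cells and 2085 for ILC2 over microglia, and no filter on low counts gave 235 for ILC2 over T cells. The 96 further genes had 4 calls for ILC2 over T cells and 23 for T cells over microglia with the newer method, and 7 and 22 with DESeq2. Without microglia 1 and 3, chosen after seeing the data and with the lone library assumed to vary like the others, they had 1, 5 and 5 calls, and all genes had 549 for ILC2 over microglia and 687 for T cells over microglia. Leaving out 1 library at a time gave 0, 0 to 1 and 0 to 1 calls of the 10 genes, 62 to 121, 711 to 1270 and 1186 to 1762 over all genes, and 0 to 2, 8 to 16 and 6 to 16 of the further genes. No paired analysis was possible because the column headings carry no replicate numbers, although the sample titles do.

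Among the differences followed over the settings, the direction turned only in those that the main test left uncalled. The called genes followed were picked by their call and, beyond 8, by large fold changes, so that a turn was unlikely there. Among the turned differences, that of Dgat2 in T cells over microglia was called by the newer quasi-likelihood method (-3.62, adjusted p = 0.0315). With total counts the log2 fold change over microglia was 0.23 for Hadha and 0.15 for Dgat1 in ILC2, and 0.030 for Cpt1a and 0.34 for Hadha in T cells. Without microglia 1 and 3 it was -0.27 for Fabp5, -0.33 for Cpt1a and 0.81 for Dgat1 in ILC2 and 7.93 for Dgat2 in T cells. Leaving out 1 library, ILC2 over microglia ran from -0.063 to 0.36 for Cpt1a, -0.51 to 0.24 for Dgat1, -0.49 to 0.29 for Hadha, -0.24 to 0.74 for Fabp5 and -0.075 to 0.79 for Plin2. T cells over microglia ran from -0.25 to 0.40 for Hadha, -0.038 to 0.81 for Acadl and -1.08 to 0.027 for Cpt1a, and ILC2 over T cells from -0.032 to 0.41 for Acadl, -0.088 to 0.35 for Acadm and -0.49 to 0.21 for Hadha. The cause was not tested. For genes at 0 in a group, depth allows up to 3 counts a library.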
